A study of Mus musculus with 18 samples.

Results

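The 33 genes described here make cholesterol and fatty acids or control that synthesis. They were the rows of the deposited expression table whose identifier was 1 of the listed mevalonate, cholesterol and fatty acid synthesis genes and regulators of the sterol regulatory element-binding proteins (SREBPs). All 33 were among the 25239 genes of the table, and all 33 were among the 12828 genes tested. By role, 7 act in the mevalonate branch, 12 in the sterol branch, 8 in fatty acid synthesis, and 6 in sterol sensing, transport and SREBP control. The rule used names and no expression value, although the list was drawn up with earlier results of these data known.

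The mevalonate pathway turns acetyl-CoA into isoprenoid units, which are joined into farnesyl pyrophosphate and, through squalene and lanosterol, into cholesterol. The transcription factors SREBP1 and SREBP2, encoded by Srebf1 and Srebf2, are held in the endoplasmic reticulum by their escort SCAP and the retention protein INSIG1 when membrane sterol is plentiful. When sterol is scarce, SCAP carries them to the Golgi, where proteases release the fragment that enters the nucleus. SREBP2 mainly turns on cholesterol genes and SREBP1 mainly turns on fatty acid genes. As background from other tissues, p53 is known to raise the cholesterol exporter ABCA1 and so to restrain SREBP2.

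RNA was measured in 3 Type D lines of mouse small cell lung cancer, 4711-1, 4711-18 and 4716-11, each with 1 of 3 sgRNAs and each as Control or Restored cells, which made 18 samples in 6 conditions of 3. All lines came from tumours of Rb1 fl/fl; Trp53 XTR/XTR; Rbl2 fl/fl mice carrying Rosa26 FlpO-ER, in which Cre had removed Rb1 and Rbl2 and trapped Trp53. Control cells received ethanol, and Restored cells received 4-OHT, which lets FlpO excise the trap and return p53, for 72 h. Every Restored sample and no Control sample received 4-OHT, so 4-OHT itself and the return of p53 cannot be told apart here. Type D is the study's name for lines that die by necrosis once p53 is back. Each sgRNA was delivered with LentiCRISPRv2. The sgRNA against beta-galactosidase (sgBgal) is the control, and sgPpia#3.2 and sgPpia#4.1 target Ppia, the gene of cyclophilin A (CypA), which selected cells still held at a reduced level. The line is the replicate, so each condition has 1 sample per line. The main fit treats the 18 samples as independent. Its p-values measure the spread between 3 lines that each came from 1 tumour. Where the line was also fitted as a replicate block, p-values measure the spread of the differences within lines. Lines 4711-1 and 4711-18 share the name part 4711, and the sources used here do not say whether they share an animal.

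Values in TPM are given in the order 4711-1, 4711-18 and 4716-11. TPM is a gene's share of the sample's transcripts, corrected for length, so levels can be compared between genes. Trp53 lay at 5.45 to 8.41 TPM in Control cells and at 181 to 236 TPM in Restored cells. Ppia in Control cells was at 2704, 2575 and 2849 TPM with sgBgal, 1073, 658 and 1207 TPM with sgPpia#3.2 and 1713, 1684 and 1952 TPM with sgPpia#4.1, and in Restored cells at 2060.1, 1551 and 2729.7 TPM, 873, 769 and 1233 TPM and 1678, 1191 and 1765 TPM in the same order of sgRNAs. Of 7 neuroendocrine lung markers, Chga, Chgb and Calca were under 1 TPM in every sample, and the 7 summed to 7.46 to 46.3 TPM in Control and 7.65 to 21.0 TPM in Restored cells. The highest sums were those of 4711-18 and were carried by Ddc. In the order sgBgal, sgPpia#3.2 and sgPpia#4.1, it was there at 38.1, 18.0 and 29.8 TPM in Control cells. In Restored cells it was there at 13.0, 5.34 and 13.0 TPM. In the other lines Ddc was at most at 1.75 TPM. Fibroblast and endothelial marker sums stayed at or under 1.51 TPM. The 5 adipocyte and hepatocyte markers summed to 0.574 to 8.32 TPM in Control and 0.0231 to 7.33 TPM in Restored cells, lower in Restored cells in each of the 9 pairs of the same line and sgRNA, and most of the higher sums was the fatty acid carrier Fabp4. The part of these levels in the results below was not tested. The leukocyte markers summed to 3.01 to 7.38 TPM in Control and 22.6 to 42.6 TPM in Restored cells, a difference carried by the lysosomal gene Cd68, while the leukocyte-defining Ptprc did not exceed 0.0814 TPM. Sequencing depth relative to the shallowest library ranged from 1 to 1.78 (median 1.31), and TPM do not give it in absolute terms.

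SREBPs bind sterol regulatory elements, usually beside CCAAT boxes bound by NF-Y. Both were searched, on both strands, from 250 bases before to 50 bases after the start site in the RefSeq promoter table (GRCm38.p6), which held 26 of the 33 members and had no entry for Fdps, Fdft1, Sqle, Stard4, Scd1, Scd2 and Fads1. The element TCACNCCAC matched in 1 of 26 members (3.85%), against 1.44% of 27025 genes, and CCAAT matched in 19 of 26 (73.1%), against 41.1% of 27025 genes. A match is a string of letters and not a measured site, and no match says only that these letters are not in the window. The 3 promoters printed are the 250 bases before the start on the plus strand, Hmgcs1 because it held the element, Insig1 and Lss chosen after their values were seen as genes with a large fall with sgBgal. Capitals mark the element and the CCAAT boxes, which read ATTGG here because all lie on the minus strand. Hmgcs1 is at chr13:119690101-119690350, Insig1 at chr5:28071162-28071411 and Lss at chr10:76531355-76531604.
Hmgcs1: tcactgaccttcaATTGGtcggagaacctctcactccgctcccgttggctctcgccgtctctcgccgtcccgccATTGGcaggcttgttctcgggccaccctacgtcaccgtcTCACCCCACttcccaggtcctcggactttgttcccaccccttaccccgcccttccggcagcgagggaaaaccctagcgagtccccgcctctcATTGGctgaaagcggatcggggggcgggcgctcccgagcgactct
Insig1: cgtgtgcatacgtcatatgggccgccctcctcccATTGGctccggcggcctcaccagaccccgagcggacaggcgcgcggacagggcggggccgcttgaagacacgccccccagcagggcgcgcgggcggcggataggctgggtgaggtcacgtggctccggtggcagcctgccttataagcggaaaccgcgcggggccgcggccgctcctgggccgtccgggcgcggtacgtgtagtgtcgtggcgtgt
Lss: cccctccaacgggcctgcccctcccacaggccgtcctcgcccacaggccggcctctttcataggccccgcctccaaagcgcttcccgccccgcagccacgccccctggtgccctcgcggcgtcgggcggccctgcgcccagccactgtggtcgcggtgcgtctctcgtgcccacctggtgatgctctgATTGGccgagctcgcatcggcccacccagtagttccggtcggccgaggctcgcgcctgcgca
In Hmgcs1 the element lay 137 to 129 bases before the start, with CCAAT boxes 237, 176 and 45 bases before it and another in the 50 bases after it that were searched and are not printed. The CCAAT box of Insig1 began 216 bases before the start and that of Lss 62 bases before it. The median log2 fold change after p53 restoration with sgBgal was -1.12 over the 19 members with CCAAT, -0.63 over the 7 without and -1.68 over the 7 with no entry, given as a description.

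p53 restoration was followed by lower levels of nearly the whole set. In the 9 pairs of Control and Restored samples that share a line and an sgRNA, the 33 members together came to 27.6% to 58.4% of their Control sum (median 51.0%). In TPM the sum was 4032 to 6370 (median 5774) in Control and 1700 to 3721 (median 2307) in Restored cells, with no overlap. The mevalonate branch kept a median of 36.9% of its Control sum, the fatty acid branch 50.4%, the sterol branch 51.6%, and the control and transport genes 68.6%. Of the 33 genes, 28 were lower after restoration in 9 of 9 pairs, Hsd17b7, Ebp and Srebf1 were lower in 8 of 9, and Scap and Abca1 were higher in 9 of 9, while 12.8% of all genes tested were lower and 30.8% higher in every pair. Comparing all 9 Restored with all 9 Control samples, 9 members (Hmgcs1, Pmvk, Mvd, Fdps, Lss, Dhcr7, Acly, Scd2 and Elovl6) were lower with no overlap, Scap was higher with no overlap, and 23 overlapped, where 3.06% of all genes were lower and 8.12% higher with no overlap. These are bulk samples, so fewer cells of a kind and less RNA per cell cannot be told apart.

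**Figure D1:**
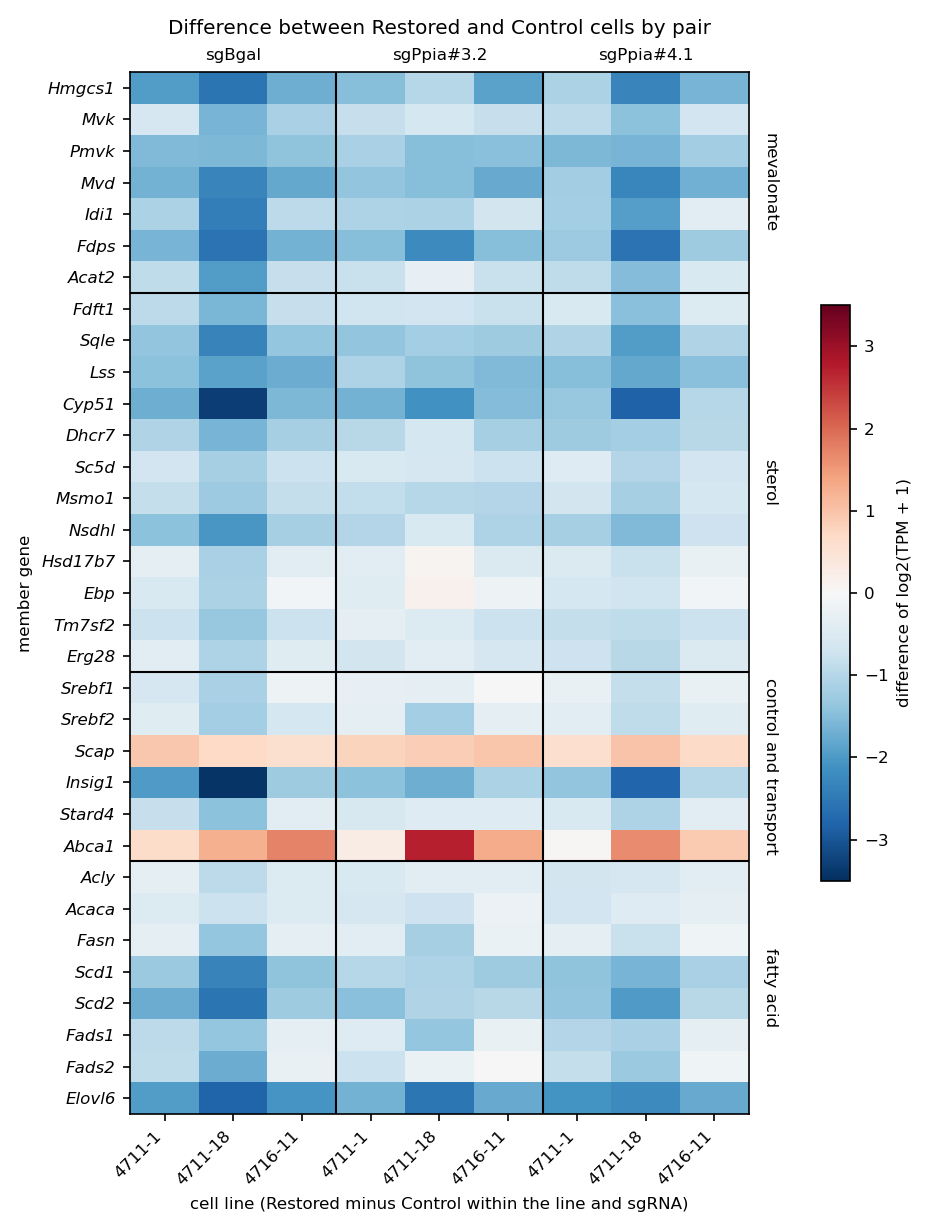
Difference of log2(TPM + 1) between Restored and Control cells for the 33 members (rows, by role) in each of the 9 pairs (columns, by sgRNA and line). Blue is lower after restoration, and the red rows are Scap and Abca1; the darkest column is 4711-18 with sgBgal.

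In cells with sgBgal, 18 members fell and 1 rose at an adjusted p under 0.05 (limma on log2(TPM + 1), Benjamini-Hochberg over 12828 genes), where 3.96% of all genes tested fell and 9.86% rose. When a log2 fold change of 1 or more in size was also required, 14 fell, against 2.17% of all genes. Fitted with the line as a replicate block, all 33 passed, 31 lower and 2 higher, while 12% of all genes passed as lower and 30.2% as higher. The groups did not overlap, with Restored lower, for 26 members, against 9.19% of all genes. Leaving out a line leaves 2 samples per condition, and then 7 members passed the adjusted p without 4711-1, and 10 without 4711-18 and 10 without 4716-11. The shares of all genes in these reduced fits are not given here, so the lower counts are not read as a result about the members. The members' median log2 fold change was -1.10, beside 0.19 over all genes, a difference of -1.29. TPM rescaled by median-of-ratios factors put the median of all genes at about 0 and that of the members at -1.32. The same rescaling moved the lower share of all genes past the threshold from 28.7% to 50.5% with sgBgal, from 23.8% to 44.1% with sgPpia#3.2 and from 30.5% to 47.4% with sgPpia#4.1. No member given here in every sample changed direction under it.

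Of the 6 genes of sterol sensing, transport and SREBP control, 3 fell and 1 rose with sgBgal, and 0 fell and 1 rose with each Ppia sgRNA. Of all genes tested, 3.96%, 2.39% and 3.14% fell and 9.86%, 7.62% and 7.16% rose with sgBgal, sgPpia#3.2 and sgPpia#4.1. With the replicate block the counts were 4 lower and 2 higher, 2 lower and 2 higher, and 3 lower and 1 higher, beside 12%, 8.86% and 10.8% of all genes lower and 30.2%, 25.3% and 24.3% higher. Of the 6, Insig1 had the largest fall. Insig1 retains the SCAP and SREBP complex in the endoplasmic reticulum and is itself a target of SREBPs. With sgBgal it was at 264, 365 and 296 TPM in Control and 66.4, 32.9 and 123 TPM in Restored cells. With sgPpia#3.2 it was at 149, 94.5 and 277 and 54.5, 28.1 and 127 TPM, and with sgPpia#4.1 at 132, 267 and 306 and 50.5, 38.3 and 152 TPM. The groups were apart with sgBgal and overlapped with each Ppia sgRNA, where the Restored 4716-11 value exceeded the lowest Control value. The log2 fold change with sgBgal was -2.22 (standard error 0.63, limma adjusted p = 0.0297). With the Ppia sgRNAs it was -1.42 and -1.71 (limma adjusted p = 0.182 and 0.102, and 0.0169 and 0.00610 with the replicate block).

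The SREBP genes themselves were expressed at 99.7 to 258 TPM (Srebf2) and 109 to 241 TPM (Srebf1) over the 18 samples. Srebf2 with sgBgal read 212, 258 and 195 TPM in Control and 157, 112 and 127 TPM in Restored cells. It read 161, 228 and 147 and 129.7, 99.7 and 115 TPM with sgPpia#3.2, and 243, 209.7 and 205 and 187, 113 and 152 TPM with sgPpia#4.1. Within each sgRNA no Restored value reached the Control range, and the lowest Restored value came from 4711-18 each time. Srebf2 fell with sgBgal (log2 fold change -0.75, standard error 0.22, limma adjusted p = 0.0324), and the values with the Ppia sgRNAs were -0.62 and -0.56 (limma adjusted p = 0.0888 and 0.119, with the replicate block 0.0260 and 0.0389). Srebf1 with sgBgal read 189, 241 and 184 TPM in Control and 125, 109 and 162 TPM in Restored cells. With sgPpia#3.2 its values were 141, 216 and 165 and 116, 172 and 167 TPM, and with sgPpia#4.1 they were 168, 216 and 193 and 139, 120.3 and 161 TPM. The states overlapped for Srebf1 with sgPpia#3.2 only, where 4716-11 was level. Its log2 fold changes were -0.64, -0.20 and -0.46 in the order of the sgRNAs above (limma adjusted p = 0.0652, 0.647 and 0.210), and with the replicate block sgBgal passed at 0.0136 while the Ppia sgRNAs were at 0.428 and 0.0670.

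Scap, the escort that moves SREBPs to the Golgi, went the other way. It was at 50.3, 57.8 and 57.5 TPM in Control and 98.4, 95.1 and 84.8 TPM in Restored cells with sgBgal. The values were 46.1, 47.4 and 37.7 and 79.5, 86.6 and 74.2 TPM with sgPpia#3.2, and 56.7, 49.2 and 55.6 and 86.3, 99.4 and 88.6 TPM with sgPpia#4.1. Every Restored sample was above every Control sample. Scap rose with all 3 sgRNAs, by 0.74, 0.86 and 0.75 on the log2 scale (standard error 0.14, limma adjusted p = 0.00274, 0.00106 and 0.00286), and it was the only member past the threshold as higher without the block. All genes tested passed as higher in 7.62% of cases with sgPpia#3.2 and 7.16% with sgPpia#4.1.

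Abca1, the cholesterol exporter, was the member with the lowest level. Its values with sgBgal were 0.226, 1.88 and 0.237 TPM in Control and 0.912, 5.83 and 3.09 TPM in Restored cells. They were 0.124, 1.38 and 0.237 and 0.346, 14.8 and 2.06 TPM with sgPpia#3.2, and 0.346, 1.36 and 0.337 and 0.389, 6.40 and 1.54 TPM with sgPpia#4.1. Each Restored sample was above the Control sample of its own line, while the groups overlapped, with 4711-18 highest in both states. The log2 fold changes of 1.20, 1.43 and 0.87 had limma adjusted p-values of 0.343, 0.293 and 0.555 without the block and 0.0239, 0.0122 and 0.0952 with it, and a pseudocount of 1 understates change at these levels. With a pseudocount of 0.1 they were 2.15, 2.33 and 1.40 (limma adjusted p = 0.293, 0.289 and 0.558).

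Stard4 carries cholesterol between membranes. It was at 57.8, 69.1 and 51.4 TPM in Control and 32.3, 24.7 and 38.5 TPM in Restored cells with sgBgal. With sgPpia#3.2 it was at 41.7, 30.4 and 52.5 and 28.2, 22.0 and 38.5 TPM, and with sgPpia#4.1 at 61.7, 48.3 and 55.4 and 42.7, 22.2 and 42.5 TPM. The states overlapped with sgPpia#3.2, where the 4711-18 Control value was low, and were apart with the other sgRNAs. Stard4 fell with sgBgal (log2 fold change -0.89, limma adjusted p = 0.0486) and had -0.48 and -0.66 with the Ppia sgRNAs (limma adjusted p = 0.327 and 0.160, with the replicate block 0.0923 and 0.0261).

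**Figure D2:**
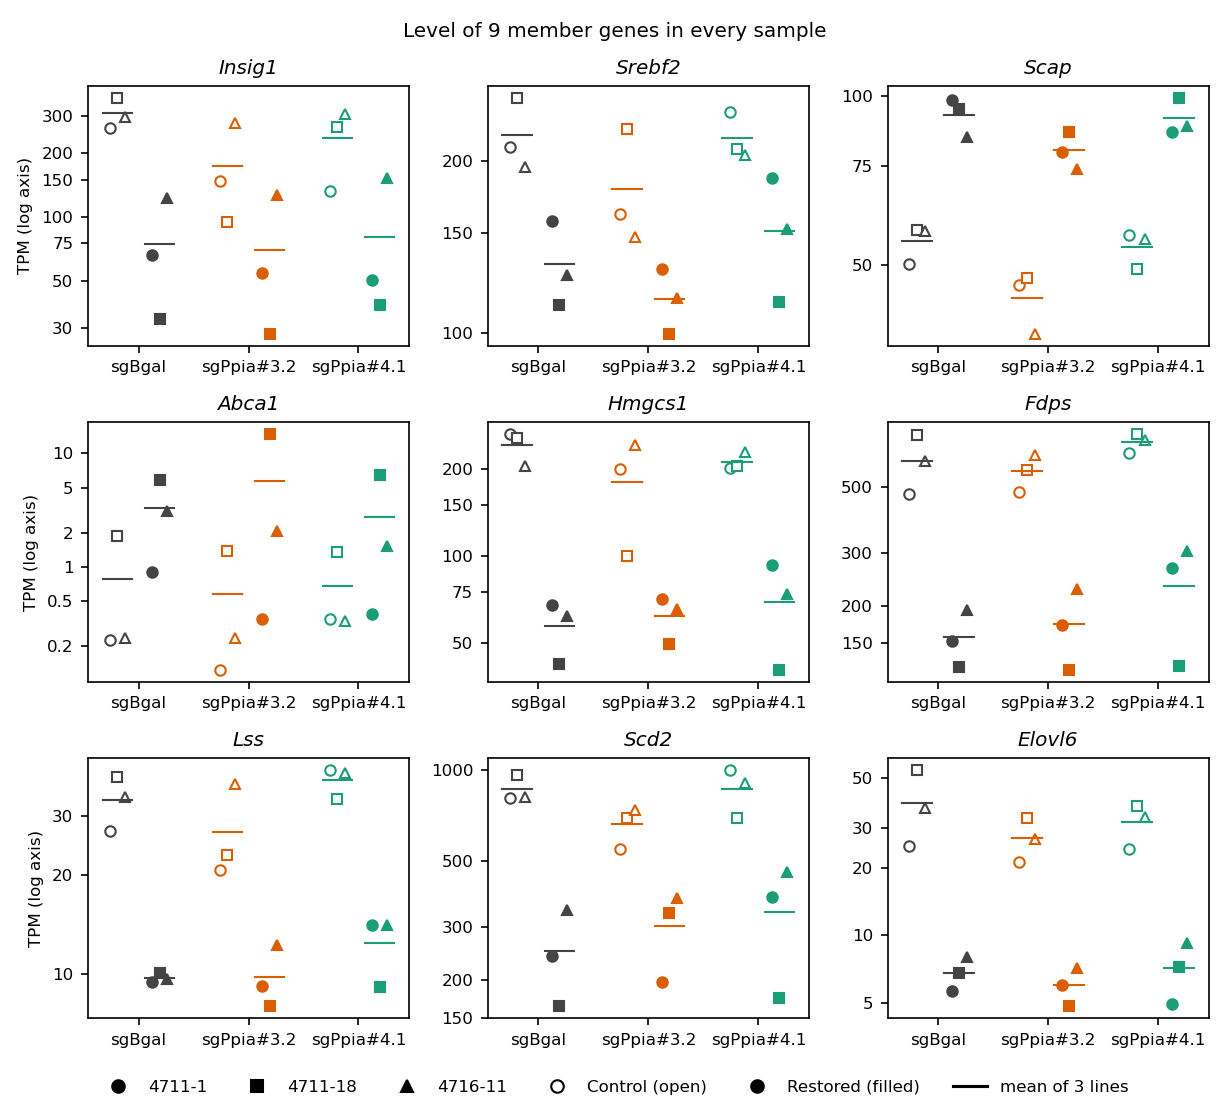
Level (TPM, log axis) of 9 members in every sample, by sgRNA, with open symbols for Control cells, filled symbols for Restored cells, a symbol shape for each line and a bar at the mean of 3 lines. Scap is higher in all 9 Restored samples, Abca1 is higher within each line, and Hmgcs1, Fdps, Lss, Scd2 and Elovl6 are lower in all 9 Restored samples than in any Control sample.

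In the mevalonate branch, 6 of 7 genes fell with sgBgal, 3 with sgPpia#3.2 and 4 with sgPpia#4.1, with medians of -1.51, -1.36 and -1.47 on the log2 scale, and with the replicate block 7, 6 and 7 fell. Over all genes 3.96%, 2.39% and 3.14% fell without the block and 12%, 8.86% and 10.8% with it. Hmgcs1, which makes HMG-CoA from acetoacetyl-CoA, was at 264, 255 and 204 TPM in Control and 67.5, 42.4 and 61.8 TPM in Restored cells with sgBgal. With sgPpia#3.2 it was at 199.6, 100.2 and 241 and 70.9, 49.4 and 65.3 TPM, and with sgPpia#4.1 at 201, 205 and 229 and 93.1, 40.3 and 73.9 TPM. All Restored values were below all Control values, and the 4711-18 Control value with sgPpia#3.2 was the lowest of the Control samples. Hmgcs1 fell 4.21-fold with sgBgal (log2 fold change -2.07, standard error 0.33, limma adjusted p = 0.000874) and by 1.45 and 1.68 on the log2 scale with the Ppia sgRNAs (limma adjusted p = 0.0115 and 0.00446).

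Fdps, the synthase of farnesyl pyrophosphate, was the most abundant gene of the branch. Its sgBgal values were 473, 750.3 and 613 TPM in Control and 153, 125 and 194 TPM in Restored cells. The sgPpia#3.2 values were 483, 572 and 642 and 172, 122 and 228 TPM, and the sgPpia#4.1 values were 651, 754 and 719.8 and 267, 126 and 306 TPM. The states were far apart, and 4711-18 was highest of the sgBgal Control samples and lowest of the Restored samples with each sgRNA. Fdps fell with every sgRNA, by 1.95, 1.73 and 1.70 on the log2 scale (standard error 0.31, limma adjusted p = 0.000894, 0.00255 and 0.00286).

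Pmvk and Mvd, the phosphomevalonate kinase and the decarboxylase that yields isopentenyl pyrophosphate, act between them. For Pmvk the sgBgal values were 57.8, 106 and 82.3 TPM in Control and 19.1, 35.0 and 30.4 TPM in Restored cells. For sgPpia#3.2 they were 50.6, 105 and 102 and 22.3, 37.1 and 36.7 TPM, and for sgPpia#4.1 they were 74.7, 97.6 and 103 and 24.4, 31.1 and 43.4 TPM. Pmvk did not overlap and differed by -1.62 to -1.14 on the log2 scale over the 9 pairs, with fitted log2 fold changes of -1.51, -1.36 and -1.47 (limma adjusted p = 0.00878, 0.0186 and 0.0116). For Mvd the sgBgal values were 129, 120.1 and 183 TPM in Control and 40.0, 23.4 and 52.6 TPM in Restored cells. Those with sgPpia#3.2 were 121, 86.9 and 220.1 and 46.3, 30.4 and 64.5 TPM, and those with sgPpia#4.1 were 188, 116 and 231 and 79.9, 23.1 and 70.7 TPM. Mvd did not overlap either, and its log2 fold changes were -1.92, -1.54 and -1.73 (limma adjusted p = 0.0157, 0.0545 and 0.0318, and 0.000223 with the replicate block for sgPpia#3.2). Of the other genes, mevalonate kinase (Mvk, -1.12, limma adjusted p = 0.0444) and the isomerase Idi1 (-1.47, 0.0313) fell with sgBgal. The thiolase Acat2 had -1.21 (limma adjusted p = 0.134, with the replicate block 0.00149). Acat2 has a close paralog, Acat3, and how shared reads were assigned is not given in the sources used here.

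The sterol branch had 5 of 12 genes lower with sgBgal, 3 with sgPpia#3.2 and 3 with sgPpia#4.1 at the adjusted p, and 12, 10 and 11 with the replicate block, against the same shares of all genes (3.96%, 2.39% and 3.14%, and 12%, 8.86% and 10.8% with the block). Its medians were -1.04, -0.80 and -0.82 on the log2 scale. Lss, the cyclase that makes lanosterol, had the smallest adjusted p of the branch. It was at 27.1, 39.4 and 34.4 TPM in Control and 9.45, 10.1 and 9.67 TPM in Restored cells with sgBgal. It was at 20.6, 22.9 and 37.5 and 9.23, 7.99 and 12.2 TPM with sgPpia#3.2, and at 41.4, 33.9 and 40.4 and 14.1, 9.15 and 14.1 TPM with sgPpia#4.1. The Restored values lay close together in a low band under every Control value. Lss fell by 1.67, 1.34 and 1.58 on the log2 scale (standard error 0.23, limma adjusted p = 0.000340, 0.00204 and 0.000611).

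Sqle, the epoxidase that feeds squalene to that cyclase, is a rate-limiting enzyme of the branch. With sgBgal it was at 208, 263 and 274 TPM in Control and 79.8, 51.3 and 107 TPM in Restored cells. The sgPpia#3.2 samples had 166, 120.4 and 251 and 62.8, 52.4 and 105 TPM, and the sgPpia#4.1 samples 247, 214 and 292 and 119, 54.7 and 139 TPM. Within each sgRNA the states were apart. Sqle fell with all 3 sgRNAs (log2 fold change -1.68, -1.27 and -1.36, limma adjusted p = 0.00887, 0.0443 and 0.0327).

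Dhcr7 makes cholesterol in a last reduction, and Nsdhl is a dehydrogenase of the demethylation steps. Dhcr7 was at 41.2, 54.1 and 53.2 TPM in Control and 19.2, 16.9 and 23.2 TPM in Restored cells with sgBgal. Its sgPpia#3.2 values were 32.95, 35.0 and 54.6 and 16.3, 22.4 and 24.0 TPM and its sgPpia#4.1 values 43.9, 46.3 and 57.0 and 17.8, 19.7 and 28.6 TPM. Dhcr7 was lower in every Restored than in any Control sample and passed with each sgRNA (log2 fold change -1.28, -0.92 and -1.14, limma adjusted p = 0.00237, 0.0221 and 0.00604). Nsdhl was at 93.5, 97.4 and 104 TPM in Control and 33.8, 23.1 and 45.8 TPM in Restored cells with sgBgal. With sgPpia#3.2 its values were 83.0, 43.4 and 128 and 40.6, 29.7 and 59.7 TPM, and with sgPpia#4.1 they were 146, 82.7 and 122 and 64.9, 27.8 and 73.2 TPM. Nsdhl overlapped with sgPpia#3.2, through a low Control value in 4711-18. It fell with sgBgal (-1.54, limma adjusted p = 0.0249) and had -0.88 and -1.14 with the Ppia sgRNAs (limma adjusted p = 0.221 and 0.102, with the replicate block 0.0109 and 0.00232).

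Squalene synthase (Fdft1) also fell with sgBgal, by 1.10 on the log2 scale (limma adjusted p = 0.0308). Cyp51, the lanosterol demethylase, had the lowest log2 fold change of the branch, -2.19 with sgBgal, and an adjusted p of 0.118 by limma that became 0.000401 with the replicate block. Its Control level with sgBgal was 115, 182 and 329.8 TPM and its Restored level 34.7, 17.5 and 111 TPM. Line 4716-11 stood far above the others in both states, and its Restored value came close under the lowest Control value. The smallest differences of the branch were in Ebp, the sterol isomerase (-0.57, adjusted p by limma 0.218), Hsd17b7, a ketosteroid reductase (-0.62, 0.255), and Erg28, a scaffold of the demethylation complex (-0.63, 0.109). The desaturase Sc5d, the oxidase Msmo1 and the reductase Tm7sf2 lay between, at -0.86, -0.98 and -0.94 on the log2 scale (limma adjusted p = 0.0860, 0.0857 and 0.273). All 6 of these genes and Cyp51 passed with the replicate block in sgBgal cells.

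The fatty acid branch had 4 of 8 genes lower with sgBgal and 2 with each Ppia sgRNA, and 8, 6 and 7 with the replicate block, where all genes gave 3.96%, 2.39% and 3.14% lower, and 12%, 8.86% and 10.8% with the block. Its medians were -0.92, -0.64 and -0.80 on the log2 scale. Elovl6, the elongase that turns palmitate into stearate, had the largest fall of all 33 members. With sgBgal it was at 24.9, 54.0 and 36.8 TPM in Control and 5.67, 6.84 and 7.99 TPM in Restored cells. With sgPpia#3.2 it was at 21.1, 33.1 and 26.7 and 6.02, 4.86 and 7.15 TPM, and with sgPpia#4.1 at 24.3, 37.4 and 33.6 and 4.97, 7.25 and 9.24 TPM. The Restored values formed a narrow band far under the Control values. The fall was 4.85-fold with sgBgal (log2 fold change -2.28, standard error 0.28, limma adjusted p = 0.000116), the 66th lowest log2 fold change of the 12828 genes, and the log2 fold changes with the Ppia sgRNAs were -1.99 and -2.02 (limma adjusted p = 0.000416 and 0.000369).

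The stearoyl-CoA desaturases put the double bond into the products of that elongase. Scd2 was the most abundant of the 33 members, at a mean of 796 TPM over the Control samples. With sgBgal it was at 806, 963 and 816 TPM in Control and 242, 164 and 343 TPM in Restored cells. Values with sgPpia#3.2 were 547, 694 and 738 and 198, 334 and 375 TPM, and values with sgPpia#4.1 were 999, 692 and 906 and 379.7, 175 and 458 TPM. No Restored value reached the Control range, and Scd2 fell with every sgRNA (log2 fold change -1.84, -1.16 and -1.45, limma adjusted p = 0.00299, 0.0467 and 0.0155). Scd1 was at 128, 411 and 357 TPM in Control and 51.2, 81.3 and 135 TPM in Restored cells with sgBgal, with a log2 fold change of -1.68 (limma adjusted p = 0.0681, with the replicate block 0.000431). The Scd1 groups overlapped, with a low 4711-1 value in Control cells. Scd1 and Scd2 are close paralogs, so the division of reads between them is uncertain.

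The enzymes at the entry of the pathway differed less. Acly, which releases acetyl-CoA from citrate, was at 128, 203 and 128 TPM in Control and 102, 108 and 91.0 TPM in Restored cells with sgBgal. It was at 123, 119 and 110.4 and 84.2, 90.0 and 85.7 TPM with sgPpia#3.2, and at 170.0, 154 and 140.0 and 109.5, 101 and 106 TPM with sgPpia#4.1. Acly did not overlap, although its nearest Control and Restored values almost touched. It fell with sgBgal by 0.58 on the log2 scale (limma adjusted p = 0.0345) and had -0.43 and -0.54 with the Ppia sgRNAs (limma adjusted p = 0.125 and 0.0535, with the replicate block 0.0289 and 0.00928). Acaca, the acetyl-CoA carboxylase, was at 15.3, 16.0 and 15.8 TPM in Control and 10.7, 9.11 and 11.2 TPM in Restored cells with sgBgal. Its sgPpia#3.2 values were 14.6, 14.4 and 12.2 and 9.47, 8.33 and 10.4 TPM, and its sgPpia#4.1 values were 16.8, 11.7 and 16.3 and 10.1, 8.27 and 12.7 TPM. Acaca was among the lowest members and overlapped with sgPpia#4.1 only. Its log2 fold changes were -0.57, -0.50 and -0.49 (limma adjusted p = 0.0432, 0.0863 and 0.0901, with the replicate block 0.00567, 0.0133 and 0.0144). Fasn, the fatty acid synthase, had -0.67 with sgBgal (limma adjusted p = 0.1003), and the polyunsaturated fatty acid desaturases Fads1 and Fads2 had -0.88 and -0.96 (limma adjusted p = 0.0792 and 0.258). All 3 passed with the replicate block, at 0.0276, 0.00784 and 0.00928.

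**Figure D3:**
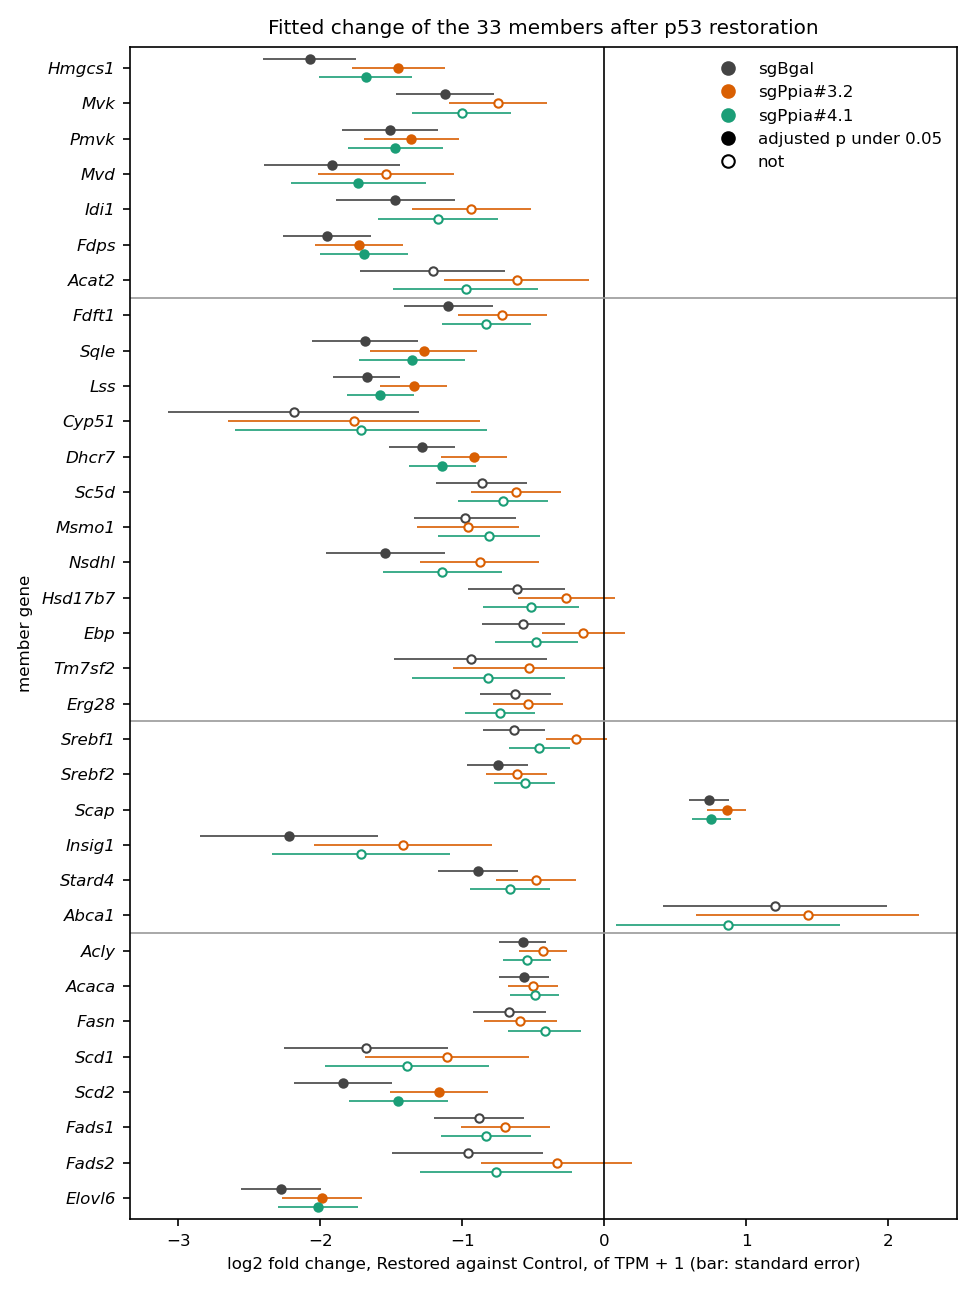
Fitted log2 fold change of TPM + 1 (Restored against Control) with its standard error for the 33 members, by sgRNA, with filled points at a limma adjusted p under 0.05. The 31 members other than Scap and Abca1 lie to the left of 0 with all 3 sgRNAs, and Elovl6 lies furthest left of the filled points.

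Much of the set was also lower after restoration with the Ppia sgRNAs. With sgPpia#3.2, 8 members fell, against 2.39% of all genes, and 7 of them by a log2 fold change of at least 1, against 1.31%. With sgPpia#4.1, 9 members fell, against 3.14% of all genes, each also by at least 1, against 1.79%. The replicate block gave 24 lower and 2 higher with sgPpia#3.2 (8.86% of all genes lower and 25.3% higher) and 28 lower and 1 higher with sgPpia#4.1 (10.8% of all genes lower and 24.3% higher). Restored values lay under all Control values for 16 members with sgPpia#3.2 (7.43% of all genes) and for 21 with sgPpia#4.1 (8.23% of all genes). Without 4711-1, 4711-18 or 4716-11, the members past the adjusted p numbered 4, 8 and 1 with sgPpia#3.2 and 6, 5 and 4 with sgPpia#4.1. These numbers stand without the shares of all genes in the same fits and are a description only. The median log2 fold changes were -0.72 and -0.83, beside 0.17 and 0.15 over all genes. Hmgcs1, Pmvk, Fdps, Sqle, Lss, Dhcr7, Scd2 and Elovl6 were past the threshold as lower with all 3 sgRNAs. A two-sided exact permutation test of 3 samples against 3 cannot go below p = 0.1, which it gives whenever the groups do not overlap.

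Whether the Ppia sgRNAs altered these genes was asked within each state. Both sgRNAs share the sgBgal samples, so their values are not independent of each other. Ppia itself had log2 fold changes of -1.51 and -0.61 in Control and -1.13 and -0.44 in Restored cells. It did not pass the adjusted p by limma without the replicate block, nor with the block for sgPpia#4.1. A count of 0 here therefore does not show that a gene was unchanged. In Control cells 0 members passed with sgPpia#3.2 and 0 with sgPpia#4.1 by limma without or with the replicate block, as did 0% of all 12828 genes without it. Without the block, at an unadjusted p under 0.05, there was 1 member with sgPpia#3.2, Scap (log2 fold change -0.33, limma adjusted p = 1), and 0 with sgPpia#4.1, against 2.42% and 0.21% of all genes. With the block, 8 members were at an unadjusted p under 0.05 with sgPpia#3.2, all 8 lower (12.7% of all genes in either direction), and 0 with sgPpia#4.1 (1.26% of all genes). Control values did not overlap, with the Ppia sgRNA lower, for 6 members with sgPpia#3.2 (5.25% of all genes) and 0 with sgPpia#4.1 (1.54% of all genes). In Restored cells 0 members passed the adjusted p with either by limma without or with the block (0% of all genes each without it). There, 0 were at an unadjusted p under 0.05 without the block (1.2% of all genes with sgPpia#3.2 and 0.53% with sgPpia#4.1), and with it 1 with sgPpia#3.2 (8.64% of all genes) and 3 with sgPpia#4.1 (3.31% of all genes), each higher. The response to restoration did not differ past the threshold from that with sgBgal for any member, with 0 past the adjusted p by limma without or with the block, 0% of all genes past it, and 0 members at an unadjusted p under 0.05 in either fit, for each Ppia sgRNA (0.242% and 0.14% of all genes without the block, 1.36% and 0.624% with it). The members' median differences from sgBgal were -0.31 in Control and 0.08 in Restored cells with sgPpia#3.2 (all genes -0.08 and -0.09), and 0.01 and 0.21 with sgPpia#4.1 (all genes -0.04 and -0.07). The difference between responses was above 0 for 33 of 33 members with sgPpia#3.2 (median 0.37) and for 31 of 33 with sgPpia#4.1 (median 0.18), beside 48.7% and 41.1% of all genes (medians -0.01 and -0.03). Within 4711-1, 4711-18 and 4716-11 it was above 0 for 23, 33 and 24 members with sgPpia#3.2 and for 16, 31 and 29 with sgPpia#4.1. These counts are a description, and the standard errors of members in these tests reached 1.25 (Cyp51).

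The lines were not alike in this. In 4711-18 Control cells all 33 members were lower with sgPpia#3.2 than with sgBgal, with a median of -0.61 (all genes -0.06), whereas the medians were -0.19 in 4711-1 and 0.03 in 4716-11. In that library Top2a, a proliferation gene, was at 67.9 TPM against 197 TPM with sgBgal, and Cdkn1a, the p53 target that encodes p21, was at 369 TPM against 154 TPM. The part of these differences in the member levels was not tested. The response in 4711-18 differed between sgPpia#3.2 and sgBgal by a median of 0.91, and in 4711-1 and 4716-11 by 0.13 and 0.08. Without this library, 8 members passed for restoration with sgPpia#3.2 in place of 9, and the median was -0.90. The share of all genes in that fit is not given here. With sgPpia#4.1, Restored cells had medians of 0.35, 0.07 and 0.32 above sgBgal in the 3 lines in the same order, and Control cells 0.31, -0.27 and 0.11.

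**Figure D4:**
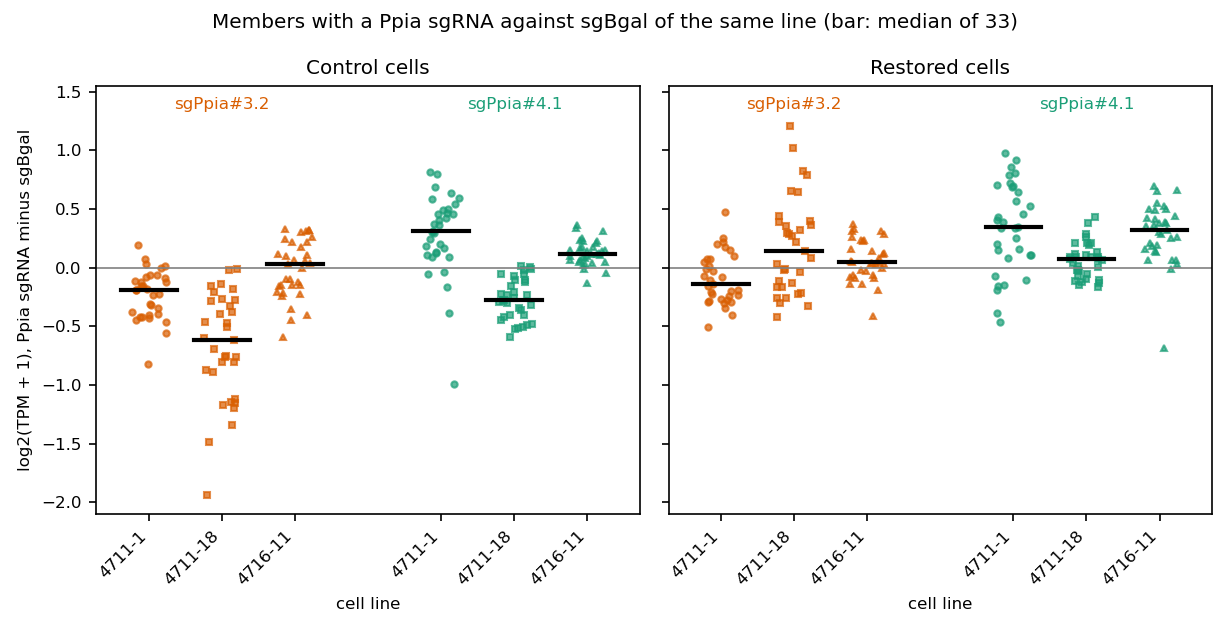
Difference of log2(TPM + 1) between a Ppia sgRNA and sgBgal in the same line for the 33 members (points), in Control cells (left) and Restored cells (right), with a bar at the median. The lowest bar, at -0.61, is 4711-18 with sgPpia#3.2 in Control cells.

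Line 4711-18 also had the largest response with sgBgal and with sgPpia#4.1. With sgBgal the median difference between Restored and Control was -0.89 in 4711-1, -1.59 in 4711-18 and -0.79 in 4716-11, and 31 of 33 members had their lowest value in 4711-18. With sgPpia#4.1 the medians were -0.89, -1.30 and -0.62, and 28 of 33 members were lowest in 4711-18. With sgPpia#3.2 the lines were close, at -0.79, -0.72 and -0.79. The lowest single values were Insig1 at -3.43 and Cyp51 at -3.30, both in 4711-18 with sgBgal. There is 1 sample for each line, sgRNA and state, so the difference between lines has no replicate of its own and was not tested.

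Other lipid genes were read beside the members. The shares of all genes that fell, 3.96%, 2.39% and 3.14%, apply to each list. Of 19 tested genes of other sterol homeostasis, 3 fell with each sgRNA, a larger share than that of all genes, and the medians were 0.14, 0.09 and 0.02 on the log2 scale. With sgBgal the 3 were Tmem97, a sterol-binding membrane protein (-1.46, limma adjusted p = 0.000899), Lrp8, a lipoprotein receptor (-1.06, 0.0101), and Aacs, which activates acetoacetate (-0.91, 0.0233). Of 18 other fatty acid synthesis genes, 2, 1 and 2 fell, with medians of -0.32, -0.26 and -0.22, and with sgBgal these were the acyl-CoA synthetase Acsl1 (-1.24, limma adjusted p = 0.00456) and the citrate carrier Slc25a1 (-0.64, 0.0161). Of 14 fatty acid oxidation genes, 0 fell and 2, 1 and 2 rose. At an unadjusted p under 0.05 there were 1, 0 and 0 lower, where 1036, 805 and 964 of all 12828 genes tested were lower. The shares of the 14 genes that rose are near those of all genes tested, of which 9.86%, 7.62% and 7.16% rose. The 2 with sgBgal were Lpin1, a lipin that also acts as a coactivator of oxidation genes (2.13, limma adjusted p = 1.97e-05), and Mlycd, which removes malonyl-CoA (0.68, 0.0398). Of 8 proliferation genes, 4, 3 and 4 fell, with medians of -1.06, -0.83 and -0.92 beside -1.10, -0.72 and -0.83 for the members, among them Ccnb1 (-2.74), Top2a (-2.51) and Cdk1 (-1.89), with limma adjusted p-values of 0.00472, 0.00398 and 0.00694 with sgBgal. The other 4 genes of that list did not pass with sgBgal, with Pcna at 0.19 and Mcm2 at 0.22 (limma adjusted p = 0.857 and 0.476), and the summed level of the list, led by Pcna, was in Restored cells a median of 105% of its Control sum over the 9 pairs. The part of the 4 lower proliferation genes in the members' change was not tested. With the replicate block, 5 genes of other sterol homeostasis passed as lower with each sgRNA and 4, 2 and 3 as higher, 6, 4 and 6 of the other fatty acid synthesis genes as lower and 0 as higher, and 3, 1 and 2 oxidation genes as lower and 3, 4 and 3 as higher. With the block 12%, 8.86% and 10.8% of all genes were lower and 30.2%, 25.3% and 24.3% higher, so the lower counts of the sterol and fatty acid synthesis lists are above those of all genes and the higher counts of these lists are near or under those of all genes.

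**Figure D5:**
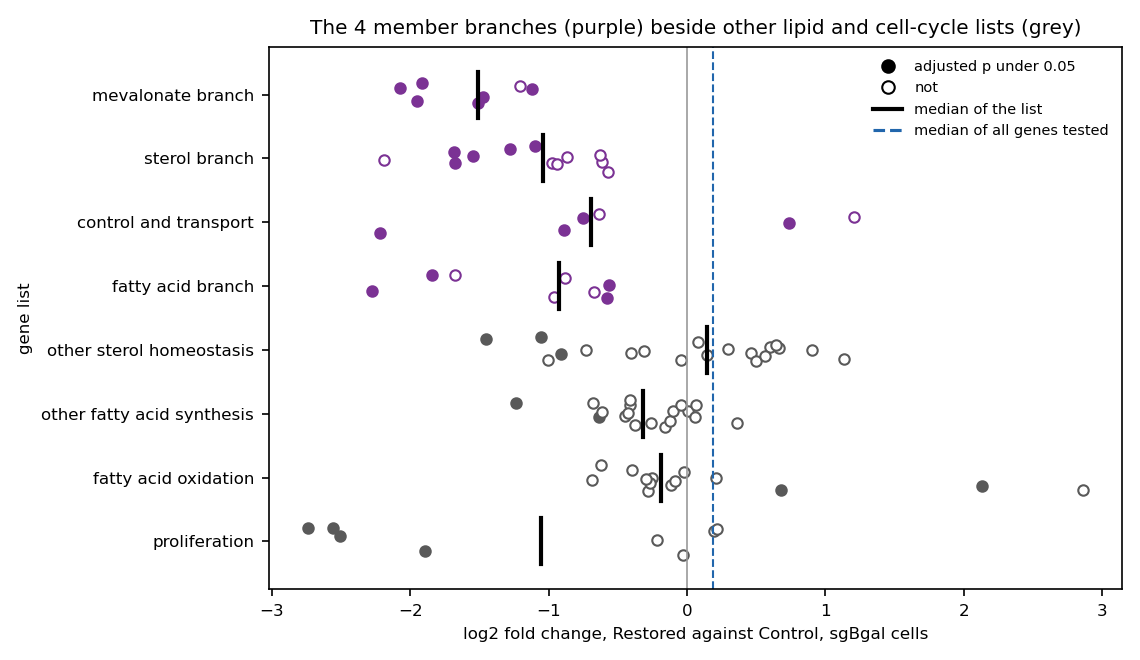
Log2 fold change after p53 restoration in sgBgal cells for the genes of the 4 member branches (purple) and of 4 other lists (grey), filled at a limma adjusted p under 0.05, with a bar at each list's median and a dashed line at the median of all genes tested, 0.19. The medians of the member branches run from -1.51 to -0.69, that of other sterol homeostasis genes is 0.14, and proliferation genes split into a group from -2.74 to -1.89 and a group near 0.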

How the data were processed

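The authors deposited TPM per gene for 18 samples, with 25239 genes in 1 column per sample. The submitters' notes and the study's methods name bcl2fastq 2.17 and HISAT2, and the build both as mm10 and as GRCm39; the methods also name Kallisto as the other aligner of the study, without saying which made these values. Libraries were made with a NEBNext Ultra II RNA kit. The annotation and the use of strand for these samples are not given in the sources used here. TPM hold no total count, so relative depth was read from the smallest steps between low values, and no counting interval was computed.

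Each value was taken as log2(TPM + 1) and tested with limma 3.58.1 (lmFit and eBayes, R 4.3.3), with 1 mean for each of the 6 conditions, over the 12828 genes that reached 1 TPM in 3 or more of the 18 samples. The threshold was a Benjamini-Hochberg adjusted p under 0.05, alone or together with a log2 fold change of 1 or more in size. A fold change on this scale understates the change of low genes. The study's methods state no block, so the fit without it comes first. Samples pair by cell line, as the labels give it, and the deviations from condition means correlated at 0.58 to 0.87 (mean 0.73) over 45 pairs of samples of the same line, so the line was also fitted as a replicate block.

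All 33 members may be named. Given in every sample are the 6 genes of sensing, transport and SREBP control, and in each other branch the 4 members with the smallest adjusted p for restoration with sgBgal. Of other lists up to 3 genes with the smallest adjusted p are named. The members and lists were chosen with earlier results of these data known. A marker gene is not reported here and was left out of its list. The fits were tested on simulated data. Counts and promoter searches used Python 3.11.15.

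Other settings tried were median-of-ratios rescaling, the smaller pseudocount of 0.1, no filter, a mean of 5 TPM or more, the line as replicate block, only the 2 groups of a comparison in the fit, robust eBayes with a trend, and leaving out each line. Leaving out the 4711-18 sgPpia#3.2 Control library was added after the data had been seen.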

Additional observations from a re-analysis of the deposited data

How the results depend on the processing

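The direction of the members' median held for each sgRNA under all alternatives. With the line as a replicate block, 33 members passed the adjusted p with sgBgal (19 without it), 26 with sgPpia#3.2 (9) and 29 with sgPpia#4.1 (10), and with a log2 fold change of at least 1 as well 18 (14), 12 (7) and 15 (9) passed. A fit on only the groups compared, which has fewer samples to estimate the spread, gave 12 with sgBgal, 2 with sgPpia#3.2 and 4 with sgPpia#4.1 at the adjusted p, and 2 and 4 with the Ppia sgRNAs at both thresholds. Leaving out 1 line gave 7 to 10 with sgBgal, 1 to 8 with sgPpia#3.2 and 4 to 6 with sgPpia#4.1 at the adjusted p, and 7 to 9, 1 to 7 and 4 to 5 at both thresholds. For these fits, the fit on only the groups compared and the block with the fold threshold, the shares of all genes are not given. Their counts are therefore not read as a result about the members. The sgPpia#3.2 median, -0.72, was -0.92 after rescaling, -0.79 to -0.77 without 1 line and -0.90 without the 4711-18 sgPpia#3.2 Control library. The counts of 0 for the Ppia sgRNAs against sgBgal, and for the differences between responses, stayed at 0 in every alternative. Ppia itself did not pass against sgBgal without the block, so a count of 0 does not show unchanged levels. Of 555 comparisons of a member given in every sample with its first fit, 446 kept their side of the threshold, 26 gained it, 83 lost it and 0 changed direction. Depth is known only in relative terms.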
